A study of Mus musculus with 7 samples.

Results

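The 9 genes described here are the 8 chondroitin sulfate synthesis genes Chst11, Chst12, Chst14, Chst15, Chsy1, Chpf, Csgalnact1 and Csgalnact2, and Vcan, which encodes the chondroitin sulfate proteoglycan versican. They were chosen by name from the 23361 genes measured, with earlier results of these libraries in view, including the higher Chst11 level at day 28, so that their values and calls are given as a description, without p-values. Expression was known for all 9 genes in each of the 7 libraries, and 8 of the 9 had enough fragments for the test across 12858 genes. Csgalnact1 did not.

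Chondroitin sulfate is a long sulfated sugar chain that is built in the Golgi on serines of a core protein. Csgalnact enzymes start the chain on a short linker, a polymerase complex of Chsy and Chpf proteins extends it, and sulfotransferases then place sulfate at defined positions, which decide which proteins the chain binds. Chondroitin sulfate proteoglycans are known for restraining axon growth after injury of the nervous system, and versican, a large secreted proteoglycan that binds hyaluronan, is a well known product of monocytes and of provisional matrix.

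The libraries were made from macrophages of wild-type BALB/cJ mice whose left sciatic nerve had been cut and bridged with a nerve conduit. The bridge inside the conduit was removed 5, 14 or 28 days later, digested with collagenase and hyaluronidase, and sorted for F4/80, CD14, CD11b and CD16/32 after exclusion of other lineages. Polyadenylated RNA was sequenced in 3 libraries of day 5, 2 of day 14 and 2 of day 28. All groups carried the injury, so no value is from uninjured nerve or from blood. The study counts its mice per time point but does not tie them to libraries, and the age and sex of these mice are not given in the sources used here. A library may thus hold RNA of 1 mouse or of several, and the errors measure the spread between libraries, which may be partly technical.

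Each library held between 18027190 and 35247116 fragments assigned to genes, the most in day 28 replicate 1. The 6 macrophage markers (Adgre1, Itgam, Csf1r, Cd68, Lyz2, Fcgr3) summed to 13260 to 20600 FPKM (fragments scaled to transcript length and library size) in every library. Lyz2 alone held 10680 to 18380 FPKM, so the sum mostly follows Lyz2. Adgre1 fell, with means of 409.5, 296.8 and 201.8 FPKM at days 5, 14 and 28 and no overlap between days. At day 28 the means of Itgam and Cd68 were also below those of day 5, and those of Csf1r, Lyz2 and Fcgr3 above. The 6 lymphocyte markers summed to at most 1.01 FPKM. The granulocyte sum of 6 markers lay between 240 and 276 FPKM in the day 5 libraries, at 496 and 515 FPKM in those of day 14, and at 253 and 105 FPKM in those of day 28, nearly all of it from S100a8 and S100a9, while Elane was at 0 fragments in every library. Day 14 replicate 1 stood apart from day 14 replicate 2: its 6 fibroblast markers summed to 211 FPKM against 76.5 FPKM, with 26.6 to 70.1 FPKM at day 5, and its 6 monocyte markers to 478 FPKM against 187 FPKM. With 2 libraries at day 14, which of them is the usual one cannot be told. Results that rest on day 14 are given with and without day 14 replicate 1 where it changes them.

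At day 5, Vcan had the highest level of the 9 genes, and by day 28 Chst11 and Chst12 had. Chst11, which encodes chondroitin 4-O-sulfotransferase 1, was higher at each later day, and Vcan was lower at days 14 and 28 than at day 5. Between day 14 and day 5, 2 of the 8 tested genes passed an adjusted p of 0.05 in edgeR's quasi-likelihood test, 1 higher and 1 lower, where 4.78% of all tested genes passed, 2.84% higher and 1.94% lower. From day 14 to day 28 it was 1 of 8, where 0.0622% of all genes passed, 0.0311% higher and 0.0311% lower. From day 5 to day 28 it was 2 of 8, where 15.2% of all genes passed, 7.74% higher and 7.51% lower. The genes were selected on these comparisons, so nothing is read from these counts. The median log2 fold change of the 8 genes was 0.37, -0.13 and 0.12 in the same order of comparisons, beside 0.03, 0.01 and 0.03 over all tested genes.

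**Figure D1:**
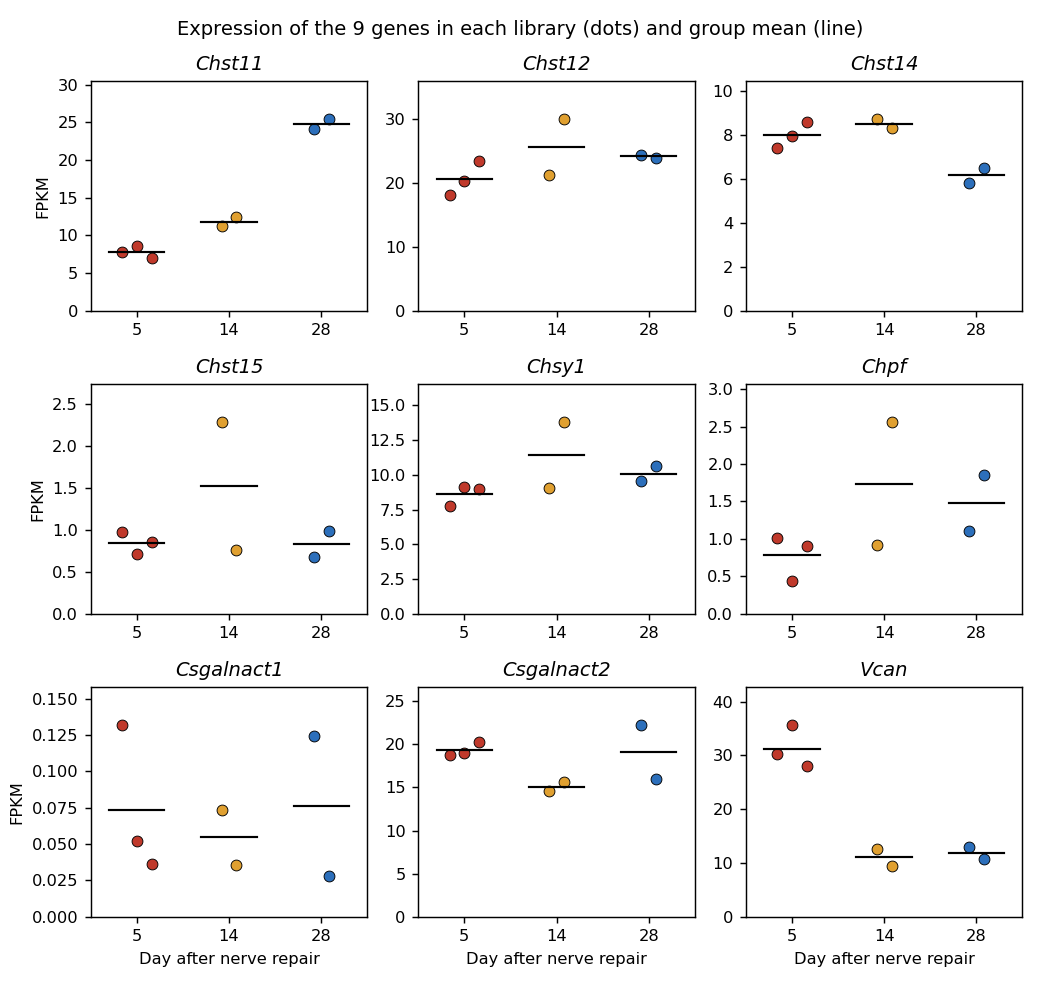
Expression (FPKM, axis from 0, own scale for each gene) of the 9 genes against the day after nerve repair. Each dot is 1 library (3 at day 5, 2 at day 14, 2 at day 28) and the line is the mean. Chst11 steps upward from 7.77 to 11.8 to 24.8 FPKM without overlap between days, whereas Vcan drops from 31.3 to 11.1 FPKM and then stays near that level, at 11.9 FPKM.

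The promoters of Chst11 and Vcan are printed because these genes had the largest differences between days and in opposite directions. Each run covers the 250 bases before and the 50 bases after the RefSeq start, 5′ to 3′ on the gene's own strand in GRCm38.p6, with every GC box (GGGCGG) and CCAAT box (CCAAT) on either strand in capitals. The Chst11 window is chr10:82985247-82985546 on the plus strand, and the Vcan window is chr13:89742463-89742762 on the minus strand.
Chst11: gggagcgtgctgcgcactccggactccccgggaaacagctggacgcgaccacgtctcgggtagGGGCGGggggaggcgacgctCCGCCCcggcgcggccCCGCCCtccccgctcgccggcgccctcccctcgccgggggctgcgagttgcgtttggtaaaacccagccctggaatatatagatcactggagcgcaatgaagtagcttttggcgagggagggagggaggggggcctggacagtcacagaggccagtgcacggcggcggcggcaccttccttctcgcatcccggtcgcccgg
Vcan: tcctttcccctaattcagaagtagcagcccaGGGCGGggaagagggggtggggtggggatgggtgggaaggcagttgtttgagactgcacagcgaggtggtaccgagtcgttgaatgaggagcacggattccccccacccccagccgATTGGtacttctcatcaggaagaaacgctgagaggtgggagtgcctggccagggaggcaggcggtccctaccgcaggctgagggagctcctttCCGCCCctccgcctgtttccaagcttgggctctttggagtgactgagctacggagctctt
The Chst11 window was 71.0% G or C and held 34 CpG dinucleotides, and the Vcan window was 61.0% G or C with 12 CpG, beside medians of 52.7% and 7 over 32851 mouse promoters of the same length. Chst11 had 3 GC boxes and no CCAAT box. Vcan had 2 GC boxes and 1 CCAAT box, printed as its reverse complement ATTGG. A GC box was found in 35.7% of all promoters and a CCAAT box in 37.4%. Neither window held TATAAA (in 13.6% of promoters), TGACTCA (AP-1, 5.2%), GAGGAAGT (PU.1, 3.2%), CACGTG (E box, 7.15%) or TGACGTCA (CRE, 1.79%), all searched on both strands. These matches are letters in a window, not sites of binding.

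Chst11 adds sulfate to the 4-O position of N-acetylgalactosamine in chondroitin. The gene lies on chromosome 10 (GRCm38, 82985498 to 83195900, plus strand), and its exons overlap no other annotated gene. Its level was 7.77, 8.59 and 6.95 FPKM in the day 5 libraries, 11.2 and 12.4 FPKM at day 14, and 24.2 and 25.4 FPKM at day 28. No library of a later day reached down to an earlier one, and the replicates of each day lay close together. The means were 7.77 ± 0.82 (SD, n = 3), 11.8 ± 0.88 (SD, n = 2) and 24.8 ± 0.89 FPKM (SD, n = 2), so that the mean at day 28 was 3.19 times that at day 5. These values rested on 810 to 4965 fragments per library. Among the 12858 tested genes, Chst11 moved from rank 6314 by mean FPKM at day 5 to rank 5111 at day 14 and rank 2968 at day 28.

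The fitted log2 fold change of Chst11 was 0.61 ± 0.12 (SE) between day 14 and day 5, 1.07 ± 0.13 between day 28 and day 14, and 1.69 ± 0.12 between day 28 and day 5, and each passed the threshold. The last call was kept in 15 of 15 alternative analyses. The day 14 against day 5 call was lost without day 5 replicate 1 (log2 fold change 0.61), day 5 replicate 2 (0.69), day 5 replicate 3 (0.55) or day 14 replicate 2 (0.53). The day 28 against day 14 call was lost without day 5 replicate 1 (1.07), day 5 replicate 2 (1.07), day 5 replicate 3 (1.07), day 28 replicate 1 (1.10) or day 28 replicate 2 (1.03), while the size of the difference stayed between 0.99 and 1.15 over all alternatives. Without day 14 replicate 1, both calls were kept.

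Chst12, which encodes a second chondroitin 4-O-sulfotransferase, had 18.1, 20.2 and 23.3 FPKM at day 5, 21.2 and 29.9 FPKM at day 14, and 24.3 and 23.9 FPKM at day 28. Day 14 overlapped with both other days, and both day 28 libraries lay above the 3 of day 5. None of the differences passed the threshold, with log2 fold changes of 0.33 ± 0.17 (SE), -0.08 ± 0.18 and 0.24 ± 0.17 in the order day 14 against 5, day 28 against 14 and day 28 against 5. The third gene of this activity, Chst13, stayed between 0.0714 and 0.571 FPKM, on 4 to 15 fragments per library. Chst11 therefore made up 29.7%, 29.4% and 22.7% of the summed FPKM of these 3 genes in the day 5 libraries, 34.0% and 29.1% at day 14, and 49.8% and 51.1% at day 28. At day 28 the Chst11 and Chst12 levels overlapped (24.2 and 25.4 against 24.3 and 23.9 FPKM), where at day 5 Chst12 was above Chst11 in every library. The share combines levels that are per length, and as Chst11 was selected for its pattern it carries no test.

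Chst14 encodes the dermatan 4-O-sulfotransferase, which acts on chains whose glucuronic acid has been turned to iduronic acid. It had 7.38, 7.96 and 8.59 FPKM at day 5, 8.70 and 8.29 FPKM at day 14, and 5.80 and 6.50 FPKM at day 28. Both day 28 libraries lay below all 5 earlier ones. The fitted log2 fold changes were 0.10 ± 0.15 (SE), -0.46 ± 0.16 and -0.36 ± 0.15 in the same order, and none passed the threshold.

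Chst15 adds a further sulfate to N-acetylgalactosamine that already carries 4-O-sulfate. It was low, at 0.969, 0.717 and 0.853 FPKM at day 5, 2.28 and 0.756 FPKM at day 14, and 0.681 and 0.984 FPKM at day 28, on 60 to 168 fragments per library. Its log2 fold change between day 14 and day 5 was 0.84 ± 0.42 (SE), not past the threshold, and turned to -0.15 without day 14 replicate 1, which held the highest value. That between day 28 and day 14 was -0.86 ± 0.47, also not past the threshold. It passed without day 14 replicate 2 (-1.46), and without day 14 replicate 1 it was 0.13. An antisense gene, Gm10584, overlaps Chst15 exons, with at most 0.202 FPKM in any library. Whether the counting used strand is not given in the sources used here.

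**Figure D2:**
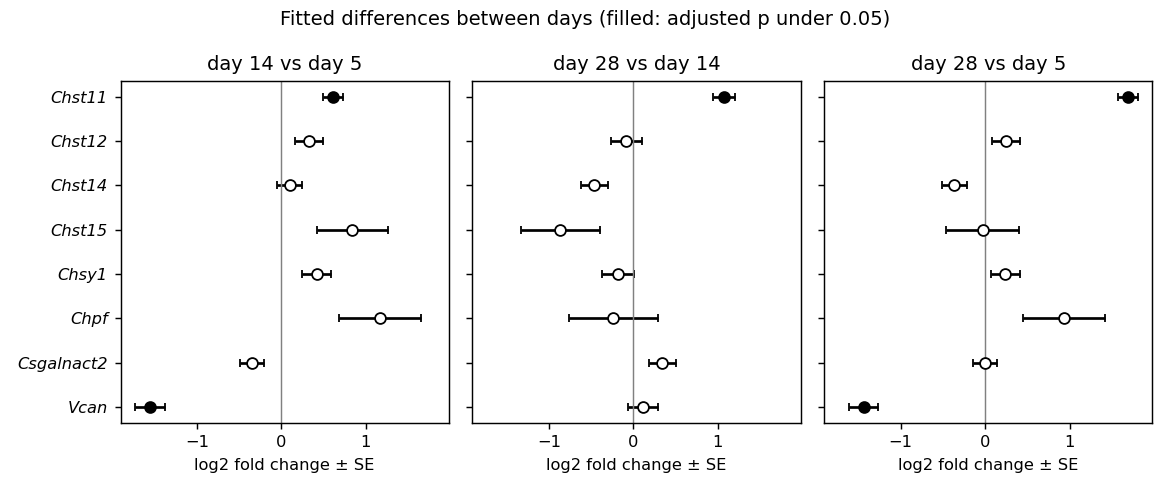
Fitted log2 fold change (x axis) with its standard error (bar) for the 8 tested genes in the 3 comparisons between days. Filled points passed an adjusted p of 0.05 in edgeR: Chst11 in every comparison, at 0.61, 1.07 and 1.69, and Vcan at -1.55 and -1.44 against day 5.

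The sulfotransferases of the 6-O position, which were not among the 9 genes, had far lower levels than Chst11 and Chst12. Chst3, the main chondroitin 6-O-sulfotransferase, had 0.118, 0.107 and 0.0849 FPKM at day 5, 0.15 and 0.226 FPKM at day 14, and 0.809 and 0.413 FPKM at day 28. It rose between day 5 and day 28 by 2.58 ± 0.45 on the log2 scale (SE, adjusted p = 0.00703, edgeR with Benjamini-Hochberg adjustment), on 11 to 185 fragments per library. Without day 28 replicate 1, which held the 185 fragments, the log2 fold change was 2.00 and did not pass (adjusted p = 0.095). Chst7, a related 6-O-sulfotransferase, had 0.72, 0.317 and 0.869 FPKM at day 5, 3.32 and 2.23 FPKM at day 14, and 1.69 and 3.83 FPKM at day 28. All 4 later libraries lay above the 3 of day 5. Chst7 rose by 2.12 ± 0.47 by day 14 (adjusted p = 0.0395) and by 2.10 ± 0.47 by day 28 (adjusted p = 0.0186).

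These Chst7 calls rested on few libraries. The day 14 call was lost without any 1 of the 3 day 5 libraries (adjusted p = 0.112, 0.107 and 0.0852 for replicates 1, 2 and 3), without day 14 replicate 1 (adjusted p = 0.0506) and without day 28 replicate 2 (adjusted p = 0.0522). The day 28 call was lost without day 5 replicate 1 (adjusted p = 0.0596), day 5 replicate 2 (adjusted p = 0.0518) or day 28 replicate 2 (1.41, adjusted p = 0.127). The summed FPKM of Chst11, Chst12 and Chst13 was 31.2, 68.9 and 32.0 times that of Chst3 and Chst7 in the day 5 libraries, 9.48 and 17.4 times at day 14, and 19.4 and 11.7 times at day 28. Every later library had a smaller ratio than every day 5 library, where the divisor rested on few fragments. In day 5 replicates 1, 2 and 3 these were 17, 13 and 11 of Chst3 and 35, 13 and 38 of Chst7. Ust, which sulfates the uronic acid, had 2.22 to 3.94 FPKM and passed the threshold in no comparison.

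**Figure D3:**
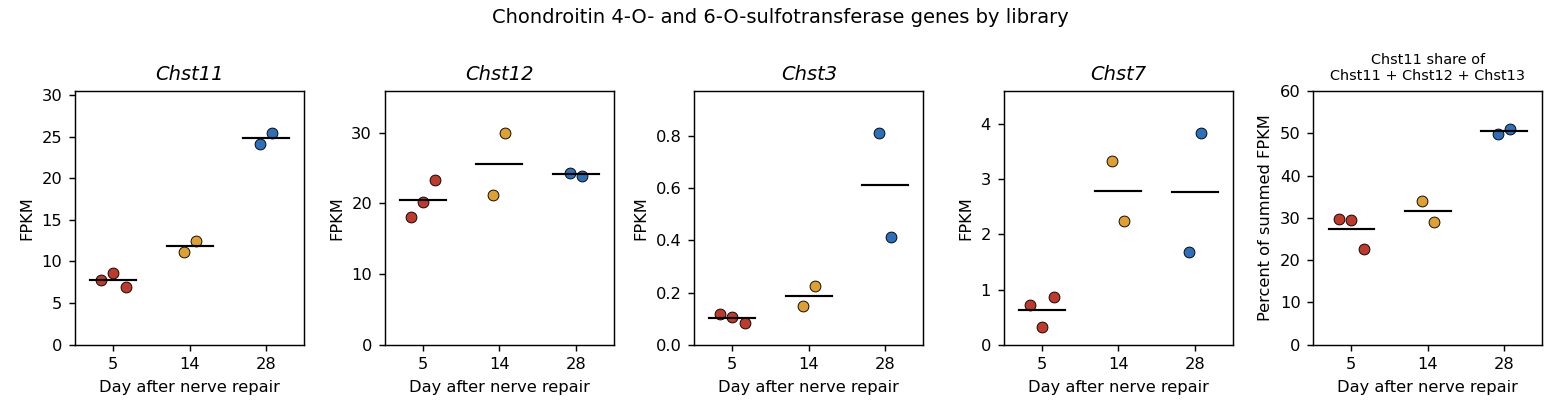
FPKM of the 4-O-sulfotransferase genes Chst11 and Chst12 and the 6-O-sulfotransferase genes Chst3 and Chst7 against the day after nerve repair, each on its own axis from 0, and in the last panel the share of Chst11 in the summed FPKM of Chst11, Chst12 and Chst13. Dots are libraries and lines are means. The Chst11 share lies between 22.7% and 34.0% through day 14 and at 49.8% and 51.1% at day 28.

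Among the genes that start the chain, Csgalnact2 was expressed and Csgalnact1 was nearly absent. Csgalnact2 had 18.8, 19.0 and 20.2 FPKM at day 5, 14.6 and 15.7 FPKM at day 14, and 22.2 and 16.0 FPKM at day 28. Both day 14 libraries were below the other 5, and the day 28 libraries lay on either side of the day 5 range. None of its log2 fold changes passed the threshold (-0.35 ± 0.14, 0.35 ± 0.16 and -0.0021 ± 0.14, SE, in the order given above). Csgalnact1 had 12, 4 and 3 fragments at day 5, 5 and 3 at day 14, and 18 and 2 at day 28, which is 0.132 FPKM at most. Several libraries were at or below the floor of 3 fragments, so that no fold change is given.

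For the polymerase, Chsy1 was the main expressed gene of the pair followed here. Chsy1 had 7.78, 9.10 and 8.997 FPKM at day 5, 9.09 and 13.8 FPKM at day 14, and 9.56 and 10.6 FPKM at day 28. Day 14 replicate 2 held the highest value and day 14 replicate 1 lay within the day 5 range. The log2 fold changes were 0.42 ± 0.17 (SE), -0.18 ± 0.19 and 0.24 ± 0.17 in the same order, none past the threshold. Chpf, its partner in the complex, was low at 1.01, 0.437 and 0.899 FPKM at day 5, 0.917 and 2.56 FPKM at day 14, and 1.11 and 1.85 FPKM at day 28, on 26 to 166 fragments. Its log2 fold changes of 1.17 ± 0.49 (SE), -0.23 ± 0.53 and 0.93 ± 0.49 did not pass. Gm26827, an antisense gene without a value in the table, overlaps Chsy1 exons.

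Day 14 replicate 1 bore on these genes. Without it, 5 of the 8 genes passed between day 14 and day 5, as Chst12 (log2 fold change 0.56), Chsy1 (0.69) and Chpf (1.72) joined Chst11 and Vcan, while 1728 of all 13329 genes in that fit passed. Without day 14 replicate 2, which had the higher Chst12, Chsy1 and Chpf levels of that day, 1 of 8 passed, and 285 of all 13377 genes in that fit. The other polymerase genes were Chpf2, at 19.1 to 28.9 FPKM, and Chsy3, which had 0 to 7 fragments per library. Chpf2 did not pass in any comparison, but did between day 14 and day 5 without day 14 replicate 1 (log2 fold change 0.55, adjusted p = 0.0167), and between day 28 and day 5 without day 14 replicate 1 (0.41, adjusted p = 0.0162) or day 14 replicate 2 (0.41, adjusted p = 0.0165).

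Vcan, the core protein gene among the 9, lies on chromosome 13 (GRCm38, 89655312 to 89742509, minus strand), and its exons overlap no other annotated gene. It had 30.2, 35.6 and 28.1 FPKM at day 5, 12.7 and 9.53 FPKM at day 14, and 12.98 and 10.8 FPKM at day 28. Every day 5 library was above every later one, and the day 14 and day 28 libraries overlapped. The means were 31.3 ± 3.9 (SD, n = 3), 11.1 ± 2.2 (SD, n = 2) and 11.9 ± 1.5 FPKM (SD, n = 2). The mean was 2.82-fold lower at day 14 and 2.63-fold lower at day 28 than at day 5, on 1871 to 7015 fragments per library. By mean FPKM, Vcan went from rank 2630 of 12858 at day 5 to rank 5296 at day 14, and held rank 5073 at day 28.

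The log2 fold change of Vcan was -1.55 ± 0.17 (SE) between day 14 and day 5 and -1.44 ± 0.17 between day 28 and day 5, both past the threshold. Both calls were kept when any 1 library was left out. Between day 28 and day 14 it was 0.12 ± 0.18, which did not pass, and it turned to -0.07 without day 14 replicate 2 and -0.05 without day 28 replicate 1. In bulk samples such as these, fewer cells of a type and less RNA per cell cannot be told apart.

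The summed level of monocyte markers was also lower at day 28 than at day 5, but did not follow Vcan in every library. The summed FPKM of the 6 monocyte markers, among them Ly6c2, Ly6c1, Ccr2, Plac8 and Chil3, was 595, 424 and 381 at day 5, 478 and 187 at day 14, and 220 and 158 at day 28. All 6 markers were above the floor in every library. Day 14 replicate 1 was within the day 5 range for this sum, with Ly6c2 at 114 FPKM, but had 12.7 FPKM of Vcan. Of these markers, Ly6c2, Ly6c1 and Plac8 fell between day 5 and day 28, whereas Ccr2 rose by 0.74 on the log2 scale (all past an adjusted p of 0.05 in edgeR). The fibroblast sum was 70.1, 33.0 and 26.6 FPKM at day 5, 211 and 76.5 FPKM at day 14, and 33.1 and 54.2 FPKM at day 28. Most of it was Col1a1, Col1a2 and Col3a1 in every library. The part of either cell type in the Vcan difference was not tested.

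**Figure D4:**
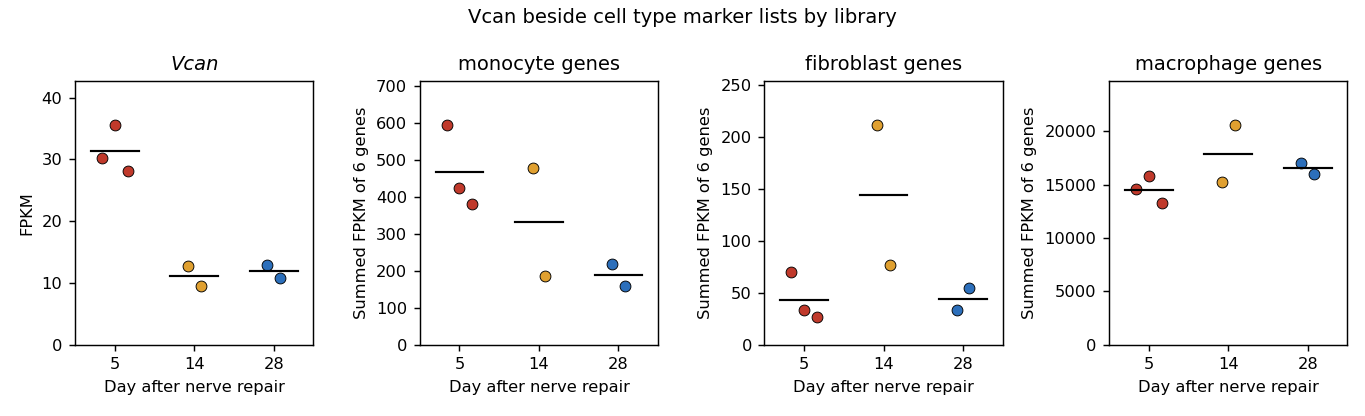
FPKM of Vcan and summed FPKM of 6 monocyte, 6 fibroblast and 6 macrophage marker genes against the day after nerve repair, with 1 dot per library and a line at the mean. The macrophage sum is mostly Lyz2, and the fibroblast sum mostly Col1a1, Col1a2 and Col3a1. Vcan is high in all 3 day 5 libraries, while day 14 replicate 1 has 478 FPKM of monocyte and 211 FPKM of fibroblast markers with Vcan at 12.7 FPKM.

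The order of the 9 genes by FPKM, which is per length, changed between the days. At day 5 it was Vcan, then Chst12 and Csgalnact2 with overlapping libraries, then Chsy1, Chst14 and Chst11, each overlapping its neighbour, then Chst15 and Chpf, also overlapping, and Csgalnact1. At day 14 it was Chst12, Csgalnact2, then Chst11, Chsy1 and Vcan, each overlapping its neighbour, then Chst14, then Chpf and Chst15, overlapping, and Csgalnact1. At day 28 Chst11 and Chst12 came first with overlapping libraries, followed by Csgalnact2, Vcan, Chsy1, Chst14, Chpf, Chst15 and Csgalnact1 with no overlap between neighbours. Chst11 thus moved from the lower middle of the list to its top, and Vcan from its top to the middle.

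The genes whose log2(FPKM + 1) was most like that of Chst11 over the 7 libraries, among 7556 genes with a mean of at least 5 FPKM, were Rabggtb (Pearson r = 0.992), Mmp19 (0.991), Traf5 (0.989), Sap30bp (0.988) and Tes (0.987). Mmp19, a matrix metalloproteinase, had mean levels of 121, 179 and 373 FPKM at days 5, 14 and 28. Traf5, a signalling adaptor of the tumor necrosis factor receptor family, had 6.59, 11.8 and 24.0 FPKM, close to the levels of Chst11 itself. The genes most like Vcan were Donson (0.997), Copa (0.995), Pak2 (0.994), Vav3 (0.994) and Msr1 (0.992), the last a macrophage scavenger receptor at 239, 152 and 150 FPKM. Chst11 and Vcan had r = -0.746. With 7 libraries in 3 groups that share their day, such values describe a likeness of pattern.

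Of 82 further genes of the pathway and its neighbours, 65 were tested. They were listed by function, but with earlier results of these data known, so their counts and adjusted p are a description. Between day 14 and day 5, 6 were higher and 1 was lower, or 10.8% called, beside 4.78% of all tested genes. From day 14 to day 28, edgeR called 0 of the 65, beside 0.0622% of all tested genes. At an unadjusted p under 0.05 there were 14 of the 65 (21.5%), beside 12.2% of all tested genes. DESeq2 called 2, beside 1.94% of all genes in that fit, and limma called 0, as it did over all genes. Between day 28 and day 5, 10 were higher and 7 lower, or 26.2% called, beside 15.2% of all tested genes, with a median log2 fold change of -0.02. In the next paragraphs the values are for day 28 against day 5 unless another comparison is named, and each adjusted p comes from the edgeR fit, adjusted by Benjamini-Hochberg over all tested genes.

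**Figure D5:**
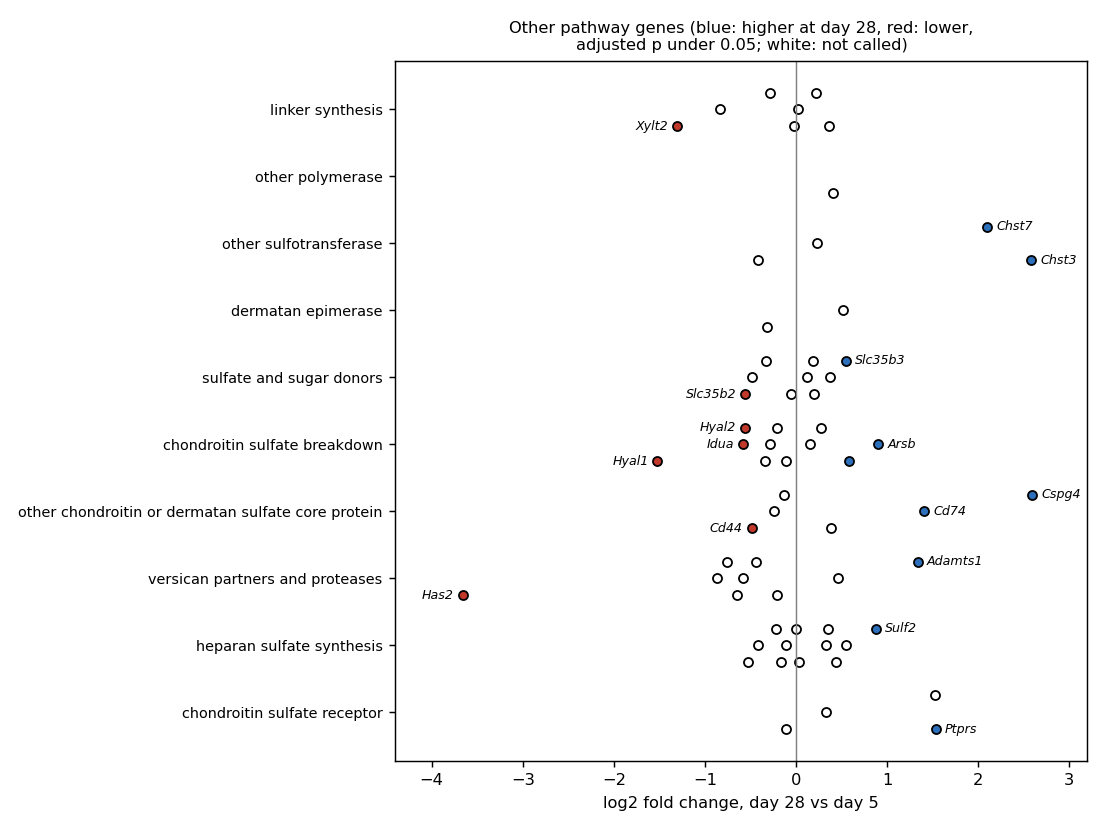
Log2 fold change between day 28 and day 5 (x axis) of the 65 tested genes outside the 9, by role (y axis, with a vertical offset inside each role for legibility). Blue points were called higher, red points lower and white points were not called, and names mark the called genes described in the text. Chst3 and Cspg4 lie farthest to the right, at 2.58 and 2.59, and Has2 farthest to the left on 1 and 2 fragments in the day 28 libraries.

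Of the 7 genes that build the linker, 1 passed, Xylt2, a xylosyltransferase that places the first sugar on the core protein. It had 82.1, 87.9 and 67.0 FPKM at day 5, 75.3 and 49.0 FPKM at day 14, and 29.5 and 33.9 FPKM at day 28. Its log2 fold change was -1.30 ± 0.20 (adjusted p = 0.00414), a call lost without day 28 replicate 1 (-1.21, adjusted p = 0.0553). Between day 14 and day 5 the log2 fold change of Xylt2 was -0.34 ± 0.19, not past the threshold, and -0.67 without day 14 replicate 1. Of the 9 genes for sulfate and sugar donors, 2 passed, both carriers of the sulfate donor PAPS into the Golgi, in opposite directions. Slc35b2 fell by 0.56 ± 0.13 (adjusted p = 0.0213) and Slc35b3 rose by 0.55 ± 0.14 (adjusted p = 0.0287). The Slc35b2 call was lost without any day 5 library or without day 28 replicate 1 (highest adjusted p = 0.154, at a fall of 0.41), and the Slc35b3 call without any 1 of the 5 libraries of these days (highest adjusted p = 0.127). Dse, the main epimerase that turns chondroitin into dermatan sulfate, was at 34.9 to 47.3 FPKM and Dsel at 1.10 to 2.26 FPKM, and neither passed.

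Of 11 genes that break chondroitin sulfate down, 5 passed. Arsb, the lysosomal sulfatase that removes 4-O-sulfate, had 24.9, 32.0 and 24.0 FPKM at day 5, 45.0 and 40.2 FPKM at day 14, and 43.1 and 57.0 FPKM at day 28. All 4 later libraries were above those of day 5, and Arsb rose by 0.90 ± 0.16 (adjusted p = 0.00803), which was lost without day 28 replicate 2 (0.69, adjusted p = 0.0579). Hyal1, a hyaluronidase, had 15.5, 16.5 and 16.7 FPKM at day 5, 10.6 and 6.29 FPKM at day 14, and 6.22 and 4.89 FPKM at day 28. It fell by 0.94 ± 0.21 by day 14 (adjusted p = 0.0415) and by 1.52 ± 0.22 by day 28 (adjusted p = 0.00332), and the second call was kept in every alternative analysis.

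Idua, the iduronidase, fell by 0.58 ± 0.13 (adjusted p = 0.0206), and Hyal2, named after its values were seen, by 0.56 ± 0.12 (adjusted p = 0.018). The call of Idua was lost without day 5 replicate 1 (-0.55), day 5 replicate 3 (-0.52), day 28 replicate 1 (-0.57) or day 28 replicate 2 (-0.60). That of Hyal2 was lost without any 1 of the 5 libraries of these days (highest adjusted p = 0.0871). The day 14 call of Hyal1 was lost without any 1 library other than day 14 replicate 1, with the highest adjusted p of 0.136 without day 14 replicate 2 (-0.61).

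Of 16 other core proteins of chondroitin or dermatan sulfate, 6 were tested. Srgn, which encodes serglycin, the main intracellular proteoglycan of blood cells, was far above Vcan per length, at 639 to 895 FPKM, and passed in no comparison. Cspg4, the NG2 proteoglycan, had 0.371, 0.309 and 0.25 FPKM at day 5, 1.53 and 1.19 FPKM at day 14, and 1.75 and 1.97 FPKM at day 28, on 43 to 532 fragments. It rose by 2.13 ± 0.22 by day 14 (adjusted p = 0.00554) and by 2.59 ± 0.22 by day 28 (adjusted p = 0.000541), with both calls kept when any 1 library was left out. Cspg4 is also known from pericytes. The endothelial and mural sum of 6 genes ran from 16.3 to 28.6 FPKM at day 5, from 9.96 to 16.5 FPKM at day 14, and from 5.61 to 9.67 FPKM at day 28. Endothelial Kdr and Pecam1 made up most of the sum at day 5. Pdgfrb, a pericyte marker of the same list, went the other way, with means of 0.377, 0.729 and 0.836 FPKM at days 5, 14 and 28. Every later Pdgfrb value was above those of day 5, without passing the threshold. Acta2 had means of 1.77, 1.95 and 1.42 FPKM, and endothelial Cdh5 1.41, 1.1 and 1.29 FPKM. Rgs5 had means of 0.179, 0.286 and 0.499 FPKM, with 0.869 and 0.129 FPKM in the day 28 libraries. The part of these cells in the Cspg4 value was not tested.

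Cd74, the invariant chain, which can carry chondroitin sulfate, had 1002, 1014 and 828 FPKM at day 5, 2343 and 1411 FPKM at day 14, and 2267 and 2708 FPKM at day 28. It rose by 0.997 ± 0.203 by day 14 (adjusted p = 0.0329) and by 1.41 ± 0.20 by day 28 (adjusted p = 0.00345). The day 14 call was lost without any 1 library of day 5 or day 28 (highest adjusted p = 0.104, without day 5 replicate 3), and the size moved to 0.59 without day 14 replicate 1. Cd44, the hyaluronan receptor, fell by 0.49 ± 0.13 (adjusted p = 0.0344), which was lost without any 1 of the 5 libraries of these days (highest adjusted p = 0.131). Both day 14 libraries of Cd44, at 305 and 249 FPKM, lay below those of day 5, at 385, 419 and 386 FPKM. That difference did not pass in edgeR, but did with DESeq2 (-0.52, adjusted p = 0.00291), and was -0.67 without day 14 replicate 1. Bgn, the biglycan gene, had 5.80, 3.84 and 2.79 FPKM at day 5, 17.4 and 7.002 FPKM at day 14, and 5.57 and 5.13 FPKM at day 28. It rose by 1.56 ± 0.37 by day 14 (adjusted p = 0.048), and the call was lost without any 1 library other than day 14 replicate 2. Without day 14 replicate 1 the log2 fold change was 0.77 (adjusted p = 0.134), and that library held 82.4 FPKM of Col1a1 against 29.9 FPKM in its partner. The part of fibroblast RNA in the Bgn value was not tested.

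Among 11 partners and proteases of versican, 9 were tested. Adamts1, a protease that cleaves versican, had 1.32, 0.798 and 0.526 FPKM at day 5, 2.26 and 1.11 FPKM at day 14, and 2.29 and 2.15 FPKM at day 28. It rose by 1.34 ± 0.38 (adjusted p = 0.045), a call lost without day 5 replicate 2 (1.27), day 5 replicate 3 (1.08), day 28 replicate 1 (1.29) or day 28 replicate 2 (1.38). Of the hyaluronan synthases, Has1 had 0.711 to 1.96 FPKM and Has3 6 to 14 fragments per library, and neither passed. Has2 had 26, 10 and 16 fragments at day 5, 13 and 8 at day 14, and 1 and 2 at day 28, and was called lower at day 28 (adjusted p = 0.031). With so few fragments no fold is given, and the call was lost without any 1 of the 5 libraries of these days (highest adjusted p = 0.208).

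Heparan sulfate is made by the sister pathway that uses the same linker. Of 12 tested genes that build it or remove its sulfate, 1 passed, a sulfatase. Sulf2, an extracellular sulfatase of heparan sulfate, had 19.4, 26.8 and 22.5 FPKM at day 5, 43.6 and 41.5 FPKM at day 14, and 37.8 and 45.3 FPKM at day 28. It rose by 0.90 ± 0.15 by day 14 (adjusted p = 0.0184) and by 0.88 ± 0.15 by day 28 (adjusted p = 0.00634), the first lost without day 5 replicate 1 (0.79, adjusted p = 0.0644) or day 5 replicate 3 (0.90, adjusted p = 0.0731). Of 4 receptors of chondroitin sulfate, 1 passed. Ptprs, the phosphatase that neurons use as a chondroitin sulfate receptor, had 13.6, 18.3 and 14.6 FPKM at day 5, 22.8 and 41.0 FPKM at day 14, and 39.4 and 50.9 FPKM at day 28. It rose by 1.05 ± 0.24 by day 14 (adjusted p = 0.0415) and by 1.53 ± 0.24 by day 28 (adjusted p = 0.00464). The day 14 call was lost without any 1 library other than day 14 replicate 1, with 0.57 (adjusted p = 0.184) without day 14 replicate 2, and the day 28 call was kept in every alternative analysis.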

How the data were processed

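RNASeq libraries of macrophages sorted at 3 time points were analysed (day 5, 3 libraries, day 14, 2 libraries, day 28, 2 libraries). The study gives n = 3 per time point for RNASeq, while 2 libraries each of days 14 and 28 were analysed here. The submitters' processing notes name cutadapt 1.8, TopHat2 2.0.13, Cuffdiff 2.2.1 and mm10. The authors trimmed single-end reads, mapped them to known junctions only, and let Cuffdiff estimate gene levels. The authors deposited expected counts (the estimated fragments of each gene before scaling), a scaled signal (the same fragments after 1 factor per library) and FPKM. The deposited FPKM are adjusted for transcript length and library size, and the scaled signal was used only for an alternative scaling. How the authors treated multi-mapped reads is not given in the sources used here. Cuffdiff marked 8 values of 4 genes as failed, none of them genes named here, and these were kept. No column of values lacked a sample (0 in all).

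After rounding of the expected counts, edgeR 4.0.16 was run in R 4.3.3 (TMM, expression filter by day, quasi-likelihood F test, all 7 libraries together with the day as the only factor, Benjamini-Hochberg adjustment over 12858 genes in each of 3 comparisons). A gene was called at an adjusted p under 0.05. Standard errors were derived from the F statistic. The study's own Cuffdiff test was not run here, and edgeR stands in for it. Alternatives used DESeq2 1.42.0 and limma 3.58.1 on log2(FPKM + 1) and log2(FPKM + 0.1). The code was tested on simulated data. Plots and summaries used Python 3.11.15, numpy 2.4.6, pandas 2.3.3 and matplotlib 3.10.9.

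The 9 genes and all gene lists were chosen with earlier results of these data known. Of the other lists, Chsy3, Chpf2, Chst3, Chst7, Chst13, Ust, Dse, Dsel, Srgn, Cd44, Has1, Has2 and Has3 were to be named whatever their values, with up to 4 called genes of each role by size of change and the 5 genes most like Chst11 and Vcan. A floor of 3 fragments marks detection and covers counting error only. Coordinates are GENCODE genes on GRCm38, the assembly that mm10 stands for, and promoters are from RefSeq (GRCm38.p6), which matched 8 of the 9 genes by symbol. The labels name no batch. Some genes of these lists are not reported here by name.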

Additional observations from a re-analysis of the deposited data

How the results depend on the processing

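Of the 8 tested genes, 2 passed between day 28 and day 5 in each of the 15 alternatives. Between day 14 and day 5 the count of 2 became 1 with limma at either pseudocount, 0 with the replicate number as a block, and 1 to 5 without 1 library. From day 14 to day 28 the count of 1 became 0 with limma at either pseudocount, 0 with only the 2 days compared in the fit, 0 with the block, and 0 to 2 without 1 library. Of the 65 other pathway genes, the 7 called between day 14 and day 5 became 11 with DESeq2, 12 without the expression filter, 2 with limma at either pseudocount, 3 with only the 2 days in the fit, 0 with the block and 1 to 12 without 1 library. The 0 between day 28 and day 14 became 2 with DESeq2, 3 without the filter and 0 to 5 without 1 library. The 17 between day 28 and day 5 became 7 with the block and 7 to 23 without 1 library. Over all genes the calls ran from 6 to 1728, from 0 to 629 and from 452 to 2778 in the same order of comparisons, where 614, 8 and 1960 were called. Between day 14 and day 5, the share of all genes called was 7.56% with DESeq2 and 8.26% without the filter, both over 17299 genes. With limma it was 1.96% and 2.15%, with only the 2 days in the fit 2.52%, and with the block 0.0467%. Between day 28 and day 14 it was 1.94% with DESeq2 and 2.25% without the filter. Between day 28 and day 5 DESeq2 called 21 of the 65, beside 13.9% of all genes. With the block that share was 5.72%. Fits with fewer libraries or the block have fewer residual degrees of freedom (2 with the block against 4). What caused these changes was not tested.

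The labels give the days the same replicate numbers, but the deviations of same-numbered libraries over 7613 genes correlated at 0.175 and 0.0449 (day 14 and day 5), -0.0538 (day 28 and day 14) and 0.0843 and 0.0249 (day 28 and day 5), so the numbers were not taken as pairs. With the replicate number as a block, Chst11 was called between day 28 and day 5 only, and Vcan between day 28 and day 5 only (day 14 against day 5, log2 fold change -1.64).

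Differences near 0 changed sign, and so did some larger ones. Among these, Chst15 was fitted at 0.84 between day 14 and day 5 and at -0.865 between day 28 and day 14. Chst13 was fitted at -0.42 between day 28 and day 5. With the block, the log2 fold change of Chst15 between day 28 and day 5 was 0.043, Csgalnact2 0.020 (0.0004 with only those 2 days in the fit), Chst7 between day 28 and day 14 0.0002, and Has3 between day 14 and day 5 -0.012. Has1 between day 14 and day 5, 0.0003 as fitted, was -0.0092 with RLE size factors, -0.0079 with the scaling of Cuffdiff, -0.0093 with DESeq2, -0.0015 without the filter, -0.0072 and -0.0141 with limma at pseudocounts of 1 and 0.1, and -0.073 with the block. Without 1 library, the log2 fold change between day 14 and day 5 ran from -0.15 to 1.43 for Chst15, from -0.20 to 0.027 for Dse, from -0.30 to 0.11 for Srgn, from -0.23 to 0.21 for Has1 and from -0.36 to 0.45 for Has3. For day 28 against day 14 it ran from -0.31 to 0.20 for Chst12, from -1.46 to 0.13 for Chst15, from -0.45 to 0.16 for Chsy1, from -0.79 to 0.70 for Chpf, from -0.066 to 0.32 for Vcan, from -0.14 to 0.26 for Chpf2, from -0.72 to 0.46 for Chst7, from -0.46 to 0.23 for Ust, from -0.14 to 0.39 for Dsel, from -0.36 to 0.053 for Srgn, from -0.11 to 0.18 for Cd44, from -0.019 to 0.996 for Adamts1 and from -0.17 to 0.10 for Sulf2. For day 28 against day 5 it ran from -0.31 to 0.23 for Chst15, from -0.26 to 0.21 for Csgalnact2 and from -2.06 to 0.47 for Chst13. Where a fit left a day with 1 library, that library was assumed to vary like those of the other days. Levels in fragments scaled by library size only, in place of FPKM, moved none of the 8 ratios of means between day 28 and day 5 of the tested genes among the 9 by more than the spread between libraries. It was run for these ratios alone. Depth limits Csgalnact1, Chsy3, Chst13, Has2 and Has3, which had few fragments in every library.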
